A study of Rattus norvegicus with 9 samples.

Results

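The genes that encode the subunits of oxidative phosphorylation were examined in the amygdala of 9 female spontaneously hypertensive rats (SHR, an inbred rat strain with high blood pressure). Members were taken by name: every gene-targeted probe whose gene name began with Ndufa, Ndufb, Ndufc, Ndufs, Ndufv, Uqcr, Cox4 to Cox8 or Atp5, or was Sdha, Sdhb, Sdhc, Sdhd or Cyc1. This gave 93 gene names of 34912 on the array, carried by 131 of 45598 probes. Each array held RNA from both amygdalae of 1 rat. All 9 rats had lost both ovaries at 4 weeks of age and, after 1 week of recovery, carried a subcutaneous minipump until 9 weeks of age. In the 4 OV rats (replicates 1, 2, 3 and 5) the pump held the vehicle polyethylene glycol alone, and in the 5 OV+E2 rats (replicates 1 to 5) it held estradiol in that vehicle and released 2 µg a day for 4 weeks. Thus OV was a state without ovaries, OV+E2 was a state with a constant external supply of estradiol, and rats with ovaries were not part of the comparison. Whole amygdala holds neurons, glia and vessels, so that fewer cells of a type and less RNA per cell cannot be told apart.

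Oxidative phosphorylation takes place at the inner mitochondrial membrane. Complex I (NADH dehydrogenase) and complex II (succinate dehydrogenase) pass electrons to ubiquinone, complex III passes them on to cytochrome c, and complex IV (cytochrome c oxidase) hands them to oxygen. Complexes I, III and IV pump protons, and complex V (ATP synthase) uses the return flow of protons to make ATP, most of which neurons spend on ion gradients. Nearly all subunits are encoded in the nucleus, a small core is encoded by the mitochondrial genome, and several subunits of complex IV exist as isoforms tied to tissue or oxygen supply. By role the 93 names comprised 7 core subunits of complex I, 29 accessory subunits of complex I, the 4 subunits of complex II, 9 subunits of complex III, 20 of complex IV (with Ndufa4 and Ndufa4l2, which carry a complex I name), 16 of complex V, 7 assembly factors of complex I that the name rule also took in, and the pseudogene Cox6c-ps1. Atp5s, whose RefSeq symbol is Dmac2l, was placed in complex V by its name alone.

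Nuclear factors that act on many of these genes bind short motifs near their start sites, and the members' promoters were searched for them. RefSeq promoters (build GRCr8, 250 bases before to 50 bases after the start) were matched for 79 of the 93 names and searched on both strands. The NRF1 motif GCGCATGCG was in 8 of 79 member promoters (10.1%) against 1.66% of all 27457 promoters. The YY1 motif AAGATGGCG was in 10 (12.7%) against 1.93%, and the GABPA (NRF2) motif CCGGAAG in 20 (25.3%) against 9.22%. Member promoters also had a higher GC content, with a median of 57.0% against 52.3%, and the part of that in these shares was not tested. The windows below are those of the 8 members with the NRF1 motif, shown because the motif is rare elsewhere; capitals mark the motif, or its reverse complement in Atp5l, 5′ to 3′ on the strand of the gene.
Atp5g2 (Atp5mc2), minus strand, chr7:135678255-135678284: ggctctagtcGCGCATGCGcagagccttct
Atp5i (Atp5me), plus strand, chr14:1464774-1464803: ttgcgctacgGCGCATGCGctttcctggct
Atp5l (Atp5mg), minus strand, chr8:54130628-54130657: caatgaCGCATGCGCatttccccacttcaa
Atp5o (Atp5po), minus strand, chr11:44657523-44657552: acgccgacgcGCGCATGCGctctggcatca
Ndufa11, plus strand, chr9:1637507-1637536: cctgcgctgtGCGCATGCGcatgcgcacag
Ndufaf4, plus strand, chr5:43401627-43401656: gcagtagtccGCGCATGCGcccctgtggaa
Ndufaf5, plus strand, chr3:147961587-147961616: agtccctttgGCGCATGCGcacaatagaaa
Uqcrc1, plus strand, chr8:118468174-118468203: actccaccctGCGCATGCGtagcgcggctt
In all of them but Atp5l and Uqcrc1 the motif overlapped a match on the opposite strand. Of the YY1 matches 7 were in complex I genes, where the motif began 4 to 26 bases after the annotated start. Capitals mark it here in 3 complex I members that are described further on.
Ndufa6, minus strand, chr7:115750283-115750312: cttccttagcAAGATGGCGgccgcggccag
Ndufb8, minus strand, chr1:253362896-253362925: ggagaaggtgAAGATGGCGgcgtcccgggc
Ndufs4, minus strand, chr2:47794891-47794920: tgcccacaggAAGATGGCGgcggtctcaat
The full estrogen response element, the palindrome of GGTCA and TGACC with any 3 bases between them that estrogen receptors bind, was in 0 of 79 member promoters and in 7 of 27457. The site of the estrogen-related receptors, TCAAGGTCA, was in 1 member promoter, that of Sdhd, against 0.412% of all. These are matches of letters in windows of 300 bases.

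The arrays differed in quality in a way that touches all differences given here. On 8 arrays the signal had a 75th percentile between 556.8 and 737.6, and on OV replicate 3 it was 129.7. All values are therefore given as log2 signal relative to that percentile of the array, and the results that turn on OV replicate 3 are given with and without it. Set against the mean of the other arrays, the interquartile range of the member probes was 0.749 log2 units on OV replicate 3 and 0.0833 to 0.196 on each of the other 8. On OV replicate 3, 12 of 92 tested genes lay more than 0.5 below that mean and 19 more than 0.5 above it, whereas on the other 8 arrays together 5 of 735 values lay as far away in either direction. The lowest on OV replicate 3 were Atp5b (−2.01) and Ndufs4 (−1.83), and the highest was Cox6b2 (+1.56). By role, core subunits of complex I had a median of −0.23 on that array and subunits of complex IV a median of +0.38. Across the 127 tested member probes this deviation correlated weakly with the GC content of the probe (Pearson r = 0.138, Spearman rho = 0.0730), a description over probes that share 1 array. On the other 8 arrays the rho of member probes ran from −0.332 (OV+E2 replicate 3) to 0.384 (OV replicate 1). The members' log2 difference, OV+E2 minus OV, also correlated with probe GC. Its rho was −0.178 with all 9 arrays and −0.382 without OV replicate 3, against −0.205 and −0.239 over all tested probes. The part of probe GC in the differences was not tested.

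The members were easily measured in amygdala. Of 131 probes 119 were well above background on all 9 arrays, 0 member spots were saturated, and 86 of the 127 tested probes were among the brightest 10% of tested probes. Tests were limited to probes that exceeded background clearly on 4 or more arrays, and the brightest tested probe stood for its gene, which left 92 of 93 genes. The exception was Cox8c, a testis isoform of the smallest complex IV subunit, which was not well above background on any of the 9 arrays.

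Set between OV+E2 and OV, oxidative phosphorylation genes differed little. In limma 0 of 30220 probes passed an adjusted p of 0.05 (smallest adjusted p = 0.156), members included. At an unadjusted p under 0.05, 2 of 92 member genes were counted, Cox4i2 and Cox6b2, both lower in OV+E2, and both were isoform subunits of complex IV. That is 2.17% of members, against 10.4% of all 23004 genes tested (3.35% higher and 7.1% lower in OV+E2). On probes the count was 4 of 127 members (3.15%) against 3137 of 30220 (10.4%), the other 2 being probes of Ndufaf4. Most member probes were bright, and of the brightest 10% of probes 132 of 3022 (4.37%) were counted. Leaving out OV replicate 3 gave 3.15% of member probes and 7.08% of the brightest 10%. The median log2 difference, OV+E2 minus OV, was −0.03 over the member genes and +0.01 over all genes, with 40 members higher and 52 lower. With OV replicate 3 left out the count was again 2 of 92, the same genes, against 14.2% of all genes, and the median was −0.01. The sign of the member median is not fixed by these data: scaling on the array median gave +0.07 for members while moving the median of all genes from +0.01 to +0.12, and normexp background correction gave +0.07 for members and −0.09 for all genes. The members' count was 5 of 92 after quantile normalization (11.1% of all genes), 1 after median scaling (9.89%), 6 in the authors' values (19.3%), 8 in those values scaled to the 75th percentile (19.5%) and 1 with slide as a block (7.93%). It was 4 of 90 among probes above background on all 9 arrays (10.8%) and 26 with array weights (31.3%). Without OV replicate 3 it was 4 in the scaled authors' values (14.7%) and 8 after quantile normalization (15.9%).

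The intervals say how large a difference could have been missed. The 95% interval of the difference lay inside 1.5-fold either way for 72 of 92 members (78.3%), against 48.9% of all genes and 77.3% of the brightest 10% of probes. This held without OV replicate 3 for 89 of 92 members (96.7%), against 72.6% of all genes and 95.1% of the brightest 10%. The 3 members outside were Cox6b2, Cox7b2 and Cox8b, all of complex IV. The median standard error of a member was 0.121 with that array and 0.0839 without it, and the median absolute difference was 0.127 and 0.0620.

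**Figure D1:**
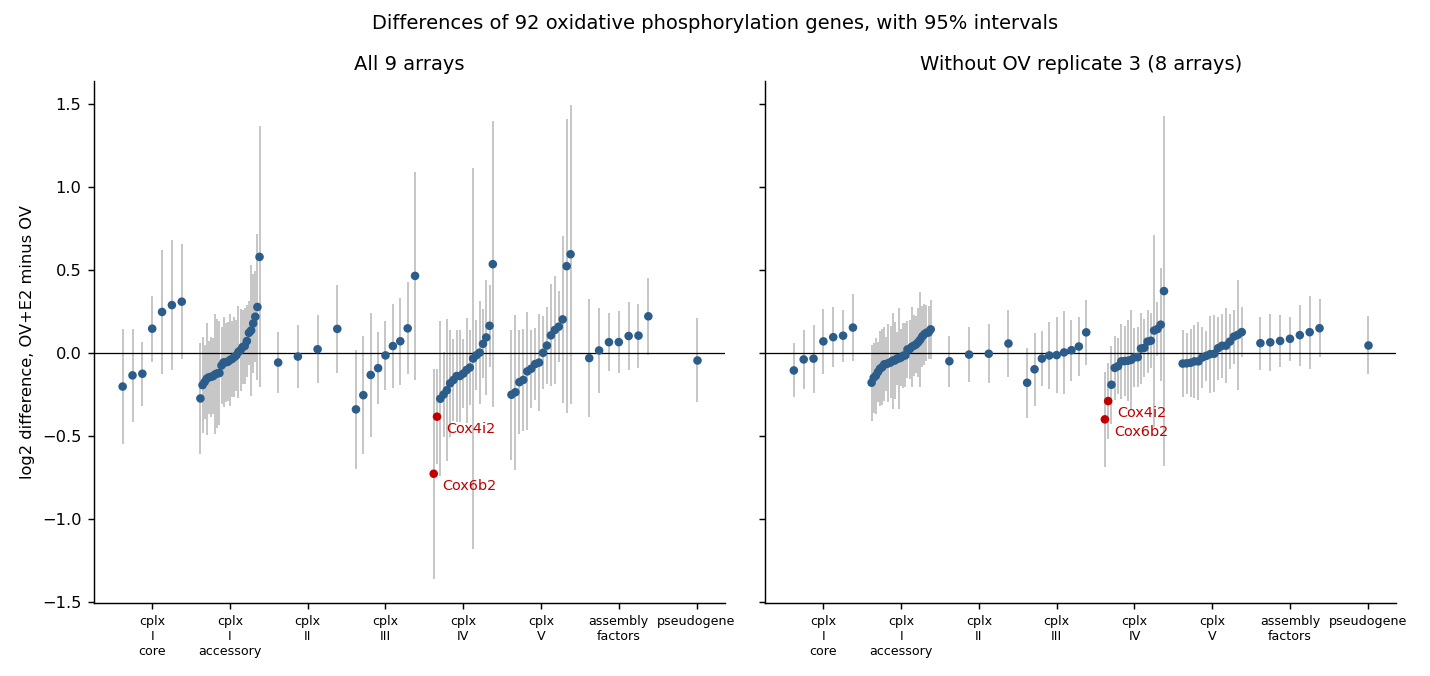
Log2 difference, OV+E2 minus OV (vertical axis), of the 92 tested genes by complex (horizontal axis, cplx = complex), with all 9 arrays on the left and without OV replicate 3 on the right. Points are limma estimates with 95% intervals, sorted within each complex, and red marks an unadjusted p under 0.05, which only Cox4i2 and Cox6b2 had in either panel.

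The medians by complex that follow depend on scaling: after median scaling they were positive for all groups except complex IV (−0.02), and after quantile normalization for all of them. Complex I core subunits, which carry the flavin and iron-sulfur centres that move the electrons, had a median difference of +0.15, with 4 of 7 higher and 0 below an unadjusted p of 0.05. Ndufs8, which holds iron-sulfur clusters next to the quinone site, lay at 2.01, 1.78, 1.21 and 1.72 in OV replicates 1, 2, 3 and 5 and at 2.06, 2.02, 2.06, 1.85 and 1.95 in OV+E2 replicates 1 to 5. Only OV replicate 1 reached the OV+E2 range, and OV replicate 3 was lowest by far. The difference of +0.31 (SE 0.15; adjusted p = 0.504 in limma) became +0.15 (SE 0.09) without OV replicate 3. Ndufs1, the largest core subunit, lay at 3.43, 3.41, 2.57 and 3.18 in OV and between 3.36 and 3.52 in OV+E2, OV replicates 1 and 2 being inside the OV+E2 range, with a difference of +0.29 that became +0.09. For Ndufv2 and Ndufs3 the differences were +0.15 and +0.25 with all arrays and +0.10 and +0.07 without OV replicate 3.

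The accessory subunits of complex I, which surround the core and are needed for its assembly and stability, had 11 of 29 genes higher, a median of −0.04 and 0 below an unadjusted p of 0.05. Ndufb8, whose protein is often used to monitor assembled complex I, lay at 7.03, 7.15, 7.56 and 6.87 in OV and at 6.93, 7.08, 6.72, 6.83 and 6.82 in OV+E2. The groups overlapped, and the difference was −0.27 (SE 0.15; adjusted p = 0.513 in limma), or −0.14 without OV replicate 3. Ndufab1, the mitochondrial acyl carrier protein, lay at 4.32, 4.16, 3.74 and 4.02 in OV and between 4.21 and 4.35 in OV+E2. Here OV replicate 1 sat inside the OV+E2 range and the other OV arrays below it, for a difference of +0.22 (SE 0.12) that became +0.11. Ndufa6 differed by −0.17 and by −0.11 without OV replicate 3.

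Ndufs4, an accessory subunit whose loss in humans and mice causes a Leigh-like brain disease, had the highest difference of complex I, and 1 array made most of it. It lay at −1.05, −1.30, −2.95 and −1.27 in OV and at −1.04, −1.03, −1.04, −1.17 and −1.03 in OV+E2. OV replicate 3 was 1.65 log2 units below the next array. The difference of +0.58 (SE 0.35; adjusted p = 0.517 in limma) became +0.14 (SE 0.08) when it was left out. The 95% intervals of all 29 accessory subunits then lay inside 1.5-fold, from Ndufa11 at −0.18 to Ndufs4 at +0.14.

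Complex II has no mitochondrially encoded subunit and also serves the citric acid cycle, and its 4 genes had a median difference of 0.00. The flavoprotein gene Sdha lay at 3.74, 3.41, 3.19 and 3.48 in OV and between 3.50 and 3.64 in OV+E2, a difference of +0.14 (SE 0.12) that became +0.06 without OV replicate 3. The iron-sulfur subunit Sdhb and the membrane anchors Sdhc and Sdhd differed by −0.06, −0.02 and +0.02, with standard errors of 0.08 to 0.09. All 4 intervals lay inside 1.5-fold.

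In complex III, 4 of 9 genes were higher and 5 lower, with a median of −0.01. Uqcrfs1 encodes the Rieske iron-sulfur protein. It lay at 3.76, 3.56, 2.26 and 3.54 in OV and at 3.78, 3.90, 3.73, 3.66 and 3.66 in OV+E2, so that OV replicate 3 stood 1.28 below the next array. The difference of +0.46 (SE 0.28) became +0.12 (SE 0.08) without it. A second, dimmer probe of Uqcrfs1 differed by −0.03 (SE 0.12), or +0.01. The small subunit gene Uqcr11 went the other way, at 5.97, 6.09, 6.59 and 5.79 in OV and at 5.72, 5.94, 5.77, 5.74 and 5.66 in OV+E2. Its difference was −0.34 (SE 0.16; adjusted p = 0.495 in limma), and −0.18 (SE 0.09) without OV replicate 3. Uqcrq, Uqcrc2 and the cytochrome c1 gene Cyc1 differed by −0.25, +0.15 and −0.09, and by −0.10, +0.04 and −0.03 without that array.

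Complex IV held both member genes below an unadjusted p of 0.05, with 5 of 19 tested genes higher and a median of −0.12, or −0.03 without OV replicate 3. Cox4i2 encodes the isoform of subunit 4 that is best known from lung and from responses to low oxygen. It lay at 1.97, 2.22, 2.43 and 1.98 in OV replicates 1, 2, 3 and 5 and at 1.61, 1.96, 1.75, 1.84 and 1.69 in OV+E2 replicates 1 to 5. Every OV array was above every OV+E2 array, by 0.01 at the nearest. The difference was −0.38 (SE 0.13; unadjusted p = 0.0140, adjusted p = 0.352 in limma), a level 1.30-fold lower in OV+E2. It was −0.29 (SE 0.10) without OV replicate 3, −0.42 within slide 1, −0.23 within slide 2 and −0.31 in the authors' values. After median scaling Cox4i2 differed by −0.28 with an unadjusted p of 0.0599, which no longer passes. Its partner Cox4i1, the isoform found in most tissues, lay at 7.16, 7.30, 7.62 and 7.07 in OV and at 7.08, 7.28, 7.10, 7.16 and 7.12 in OV+E2. These groups overlapped, and the difference of −0.14 (SE 0.12) became −0.03 (SE 0.08) without OV replicate 3. The probe of Cox4i2 lies at chr3:143114177-143114236 and that of Cox4i1 at chr19:51030141-51030200 of build rn4.

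Cox6b2, an isoform of subunit 6B best known from testis, lay at 3.39, 3.68, 4.74 and 3.21 in OV and at 2.94, 3.18, 3.17, 3.01 and 2.85 in OV+E2. Again every OV array was above every OV+E2 array, and OV replicate 3 was 1.05 above the next. The difference was −0.73 (SE 0.28; unadjusted p = 0.0288, adjusted p = 0.428 in limma), a level 1.65-fold lower, and −0.40 (SE 0.12), or 1.32-fold lower, without OV replicate 3. It was −0.88 within slide 1, which included OV replicate 3, and −0.20 within slide 2, where OV replicate 5 was the only OV array. With slide as a block it was −0.62, with an unadjusted p of 0.0725, which no longer passes. Nor did it pass when OV+E2 replicate 1, 4 or 5 was left out, with unadjusted p-values for Cox6b2 of up to 0.0590. Cox6b1, the common isoform, lay at −0.38, −0.25, −0.72 and −0.44 in OV and at −0.35, −0.16, −0.29, −0.29 and −0.34 in OV+E2, a difference of +0.16 (SE 0.11) in overlapping groups that became +0.07 (SE 0.07) without OV replicate 3. The probe of Cox6b2 lies at chr1:67811691-67811750 and that of Cox6b1 at chr1:85669891-85669950 of rn4. Among all genes the groups did not overlap in 7.05% (OV higher in 3.95%, OV+E2 higher in 3.1%), and among members in 2 of 92, these same genes.

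**Figure D2:**
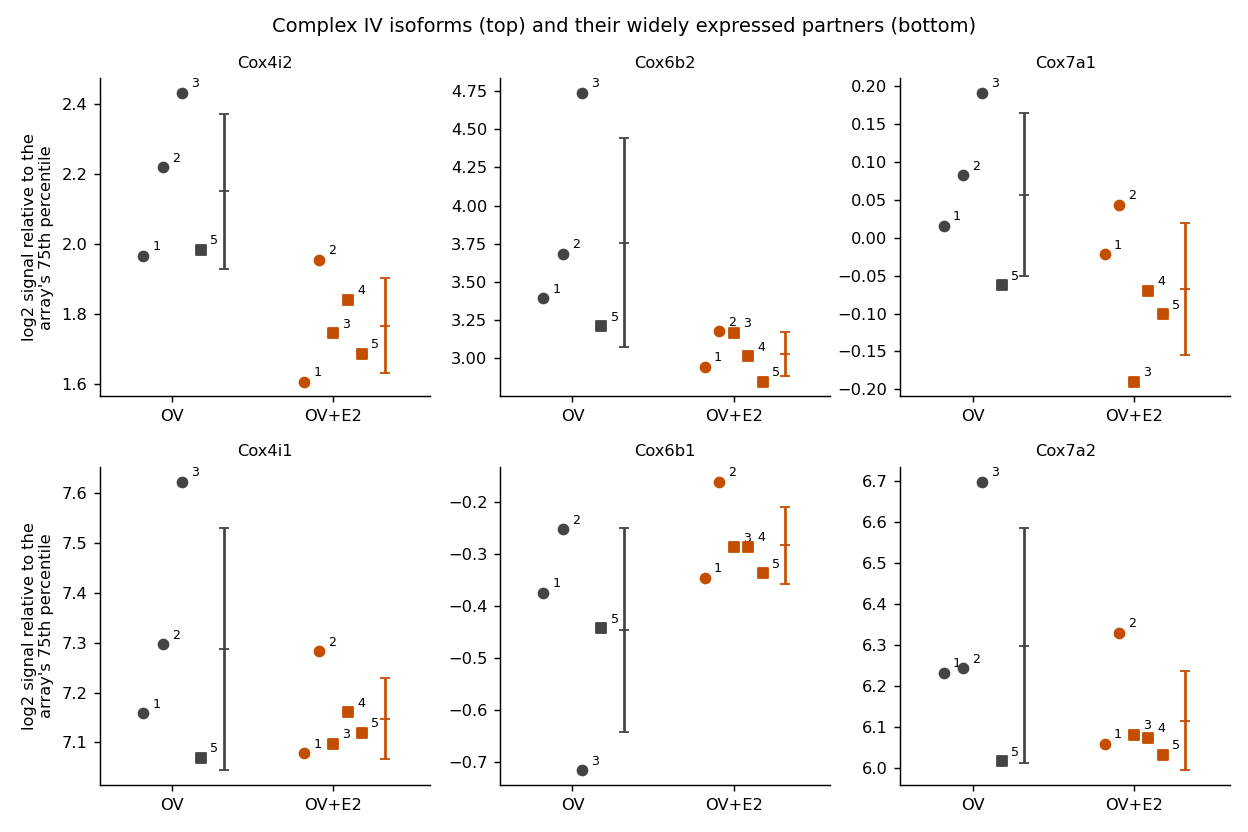
Log2 signal relative to the array's 75th percentile (vertical axes, 1 scale per gene) of 3 tissue-restricted complex IV isoforms in the top row and their common partners in the bottom row, in OV (grey) and OV+E2 (orange) rats. Points are rats labelled by replicate number, circles slide 1 and squares slide 2, and bars are the mean and SD; in Cox4i2 and Cox6b2 every OV rat is above every OV+E2 rat, and in the other 4 genes the groups overlap.

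The other isoforms of complex IV did not set the groups apart. Of the forms known from heart and skeletal muscle, Cox6a2 and Cox7a1 differed by −0.28 (SE 0.21) and −0.12 (SE 0.09), and their partners Cox6a1 and Cox7a2 by −0.14 and −0.18. Without OV replicate 3 the differences of those 4 genes lay between −0.08 and −0.05. Cox8b, another muscle form, was the most variable member, at −0.83, −2.28, 0.29 and −0.89 in OV and at −1.19, 0.08, −1.70, −1.23 and −0.78 in OV+E2. Its 95% interval ran from −1.18 to 1.11, and its difference of −0.03 became +0.37 without OV replicate 3, so that little can be said of it. Cox8a, the common form, lay at 7.16, 7.35, 7.42 and 7.04 in OV and at 6.97, 7.20, 6.86, 7.01 and 6.91 in OV+E2, a difference of −0.25 (SE 0.11; adjusted p = 0.488 in limma). Cox7b2, a testis form, lay at −3.92, −3.41, −5.35 and −3.92 in OV and between −3.99 and −2.92 in OV+E2, and its difference of +0.53 (SE 0.38) became +0.13 without OV replicate 3. Cox7b and Cox7a2l (a supercomplex factor) differed by +0.05 and −0.09, and by +0.07 and −0.03 without that array. Ndufa4 differed by 0.00 (SE 0.14) with all arrays, by +0.14 (SE 0.07) without OV replicate 3 and by −0.08 without OV replicate 5. Its unadjusted p was under 0.05 in the authors' values (+0.16), as deposited or scaled, with array weights, and without OV replicate 3 after quantile normalization or with slide as a block. Ndufa4l2, a form induced by low oxygen, differed by +0.09 (SE 0.15), by +0.17 without OV replicate 3 and by −0.008 without OV replicate 1. Its second, dimmer probe differed by +0.15, or −0.07 without OV replicate 3.

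Complex V divided evenly, with 8 of 16 genes higher and a median of −0.03. The largest differences were those of Atp5b and Atp5c1, 2 genes of the catalytic head, and these too came with 1 array. Atp5a1, Atp5d and Atp5e, also of that head, differed by −0.07, −0.25 and −0.24. Leaving out OV replicate 3 made these −0.06, −0.06 and −0.005. Atp5b, the catalytic beta subunit, lay at 3.86, 3.21, 1.61 and 3.57 in OV and between 3.54 and 3.84 in OV+E2, and its difference of +0.59 (SE 0.40) became +0.11 (SE 0.14) without OV replicate 3. Atp5c1, the gamma subunit that turns inside the head, lay at 4.15, 3.91, 2.02 and 3.91 in OV and between 3.93 and 4.12 in OV+E2. Its difference moved from +0.52 (SE 0.39) to +0.03 (SE 0.08). Atp5g1, Atp5g2 and Atp5g3, which encode the same proton-carrying c subunit from separate genes, differed by −0.18, −0.16 and +0.20, and by −0.05, −0.05 and −0.06 without that array. Atp5s, counted in complex V by its name alone, differed by +0.16, and by +0.10 without that array. The 16 genes of complex V then spanned −0.06 to +0.13.

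The assembly factors of complex I were slightly higher in OV+E2 in 6 of 7 genes, with a median of +0.07 and 0 below an unadjusted p of 0.05. Without OV replicate 3 all 7 were higher, by +0.06 (Ndufaf6) to +0.15 (Ndufaf4). For Ndufaf5, Ndufaf3 and Ndufaf7 the differences were +0.10, +0.10 and +0.06, with standard errors of 0.08 to 0.09.

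Ndufaf4, a factor that joins early assembly intermediates, was measured by 4 probes that did not give 1 answer. The brightest, at chr5:39944700-39944759 of rn4, lay at 1.11, 1.00, 0.71 and 0.90 in OV and at 1.13, 1.29, 1.15, 1.07 and 1.11 in OV+E2, a difference of +0.22 (SE 0.10; adjusted p = 0.495 in limma). A dim probe at chr5:39945833-39945892 exceeded background on 2 of the 4 OV arrays and on all 5 OV+E2 arrays. It thus passed the filter of 4 arrays only with the OV+E2 group, where it was higher. It lay at −5.53, −4.96, −5.57 and −4.75 in OV and at −4.46, −4.03, −3.86, −4.25 and −4.58 in OV+E2, all OV+E2 arrays being higher. That difference was +0.97 (SE 0.22; adjusted p = 0.251) and turned to −0.17 after normexp background correction. A further probe at chr5:39943343-39943402 went lower, from −2.91, −2.80, −2.69 and −2.89 in OV to −3.28, −2.88, −3.10, −3.68 and −3.85 in OV+E2. Its difference was −0.53 (SE 0.20; adjusted p = 0.407). The probe beside it, at chr5:39943282-39943341, differed by −0.01 (SE 0.20), and by −0.21 (SE 0.12) without OV replicate 3. Which transcripts each probe reports was not analysed here.

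**Figure D3:**
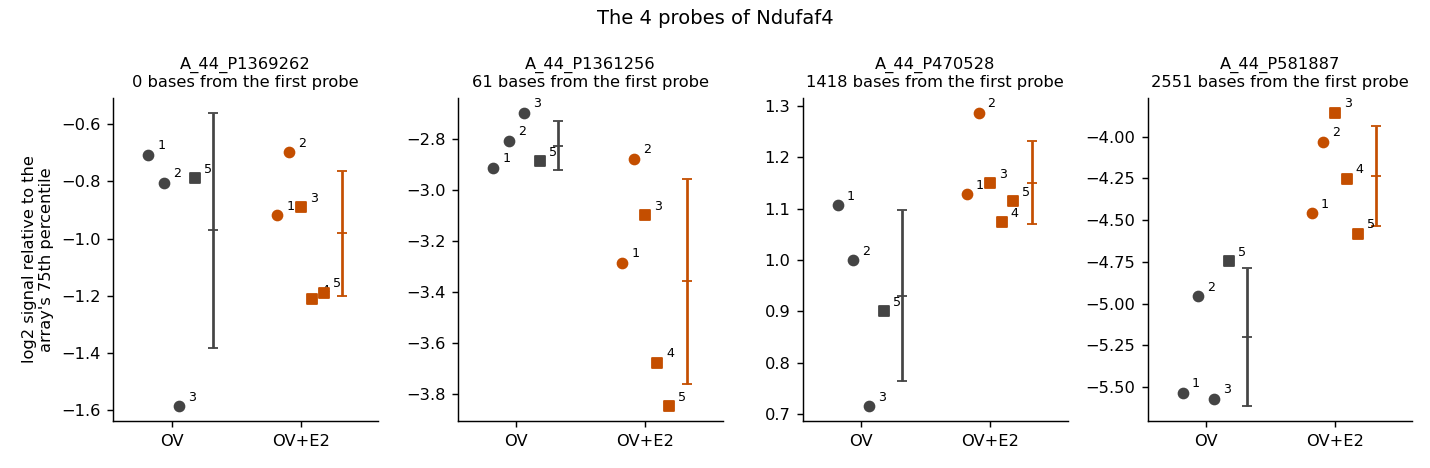
Log2 signal relative to the array's 75th percentile (vertical axes, 1 scale per probe) of the 4 Ndufaf4 probes, ordered by position, in OV (grey) and OV+E2 (orange) rats. Points are rats labelled by replicate number, circles slide 1 and squares slide 2, and bars are the mean and SD. The second probe has a lower mean in OV+E2, with overlapping groups. The last probe, which is dim, is higher in OV+E2, a direction that reversed after normexp background correction.

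Probes of the same gene also differed elsewhere. Of 29 genes with several tested probes, 12 had probes of opposite sign, and in 2, Ndufaf4 and Cox7c, the probes were apart by more than 0.5. For Cox7c the representing probe differed by −0.16 (SE 0.11), or −0.09 without OV replicate 3, and a dimmer probe by +0.80, or +0.13. The probes of Ndufa7 differed by −0.12 and +0.33, and by +0.02 and +0.06 without OV replicate 3.

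The arrays sat on 2 slides: OV replicates 1 to 3 shared slide 1 with OV+E2 replicates 1 and 2, and OV replicate 5 shared slide 2 with the other OV+E2 replicates. In a comparison of the slides chosen after the values by array were seen, with group as a term and without OV replicate 3, 30 of 92 member genes (32.6%) had an unadjusted p under 0.05 in limma, 29 of them higher on slide 1. The background was 16.5% of all genes (6.54% higher on slide 1). The median member was 0.13 higher on slide 1, against 0.01 for all genes and 0.11 for the brightest 10% of probes. Of those bright probes 25.1% had an unadjusted p under 0.05, against 34.6% of the 127 member probes, and the difference between these shares was not tested. Atp5j2 and Ndufb7, for example, were higher on slide 1 by 0.23 (SE 0.06) and 0.21 (SE 0.06). With all 9 arrays they were higher by 0.16 (SE 0.14) and 0.20 (SE 0.08). Ndufa4l2 was the 1 counted gene that was lower on slide 1, at −0.31 (SE 0.10). Its other, dimmer probe stood at −0.63 (SE 0.09), with the smallest p of all member probes (adjusted p = 0.0399 in limma). The share of all probes that passed at an adjusted p in this comparison is not given here. Signal over background also limits Ndufa4l2. The dimmer probe stood at −0.71 (SE 0.17) with all 9 arrays. With all 9 arrays 3 member genes passed, all higher on slide 1, against 5.78% of all genes. With slide as a block and without OV replicate 3, 7 members had an unadjusted p under 0.05 for treatment (7.61%, against 16.1% of all genes), 5 of them higher, and the median was +0.04.

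The 13 subunits encoded by the mitochondrial genome, which the name rule did not include, were mostly lower in OV+E2, except after quantile normalization, where 7 of 13 were higher. They form the core of complexes I, III, IV and V, and the files name them without a prefix (ND1 to COX3); they are written here with Mt. All 13 were tested, 12 were lower, 1 was below an unadjusted p of 0.05 (10.4% of all genes were), and the median difference was −0.36. That count was 12 with array weights, where 31.3% of all genes were counted. It was 5 without OV replicate 1 or 5, and 0 without OV replicate 2 or OV+E2 replicate 1, 3, 4 or 5. Mt-atp6, a proton-channel subunit of complex V, lay at 8.88, 9.18, 10.06 and 8.89 in OV and at 8.66, 8.79, 8.70, 8.69 and 8.54 in OV+E2, so that every OV array was above every OV+E2 array. Its difference was −0.57 (SE 0.23; adjusted p = 0.441 in limma), and −0.31 (SE 0.09) without OV replicate 3. Mt-cyb, the cytochrome b of complex III, lay at 8.25, 8.66, 10.08 and 8.35 in OV and at 8.16, 8.31, 8.06, 8.15 and 7.94 in OV+E2, a difference of −0.71 (SE 0.34), or −0.30 (SE 0.12) without that array. Mt-nd6 differed by −1.05 (SE 0.50), or −0.47. Saturated spots were counted for the members only, not for these brighter genes.

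Without OV replicate 3 all 13 mitochondrially encoded genes were lower, and the median was −0.19. Of these 3 had an unadjusted p under 0.05, against 14.2% of all genes. On OV replicate 3 their median deviation was +1.26, and OV replicate 2 came next at +0.35 with all 13 above the mean of the other arrays. When both were left out the median was −0.08 with 11 of 13 lower. With no array left out, the median was −0.46 within slide 1, which included OV replicates 2 and 3. It was −0.15 within slide 2, where OV replicate 5 was the only OV array. Quantile normalization, which forces the same distribution on all arrays and sets the brightest probes, turned the median to +0.06, and without OV replicate 3 it gave −0.03. In the authors' values it was −0.16 with 13 of 13 lower. The nuclear members and the mitochondrially encoded genes were not tested against each other.

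**Figure D4:**
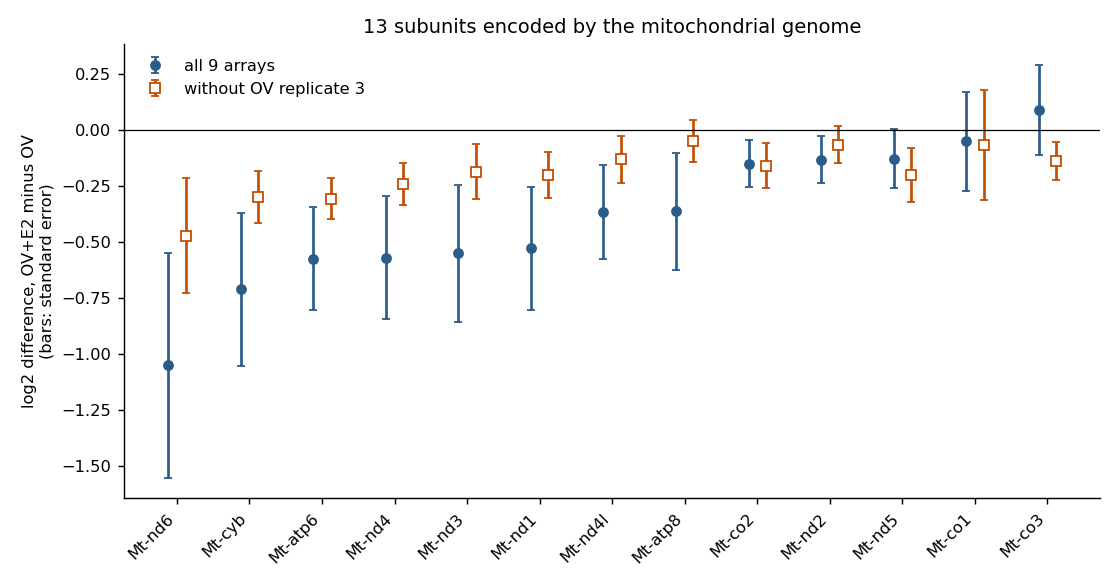
Log2 difference, OV+E2 minus OV (vertical axis), of the 13 subunits encoded by the mitochondrial genome (horizontal axis, ordered by the value with all arrays). Blue circles are limma estimates from all 9 arrays, open orange squares those without OV replicate 3, and bars are standard errors; 12 of 13 lie below 0 with all arrays and 13 of 13 without OV replicate 3, against 6 of 13 after quantile normalization, which is not drawn.

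Genes around the pathway moved little as well. Of 24 genes of the citric acid cycle and pyruvate entry 19 were higher, with a median of +0.14 that became +0.05 without OV replicate 3. Just 1 of the 24 had an unadjusted p under 0.05, against 10.4% of all genes. That was Idh3a, a subunit of the NAD-dependent isocitrate dehydrogenase, at 1.05, 1.16, 0.68 and 1.15 in OV and at 1.26, 1.41, 1.43, 1.33 and 1.40 in OV+E2, with a difference of +0.36 (SE 0.12; adjusted p = 0.348 in limma). Its groups did not overlap, and the difference without OV replicate 3 was +0.25 (SE 0.07). Of 24 electron carriers, nucleotide exchangers and uncoupling proteins 15 were higher (median +0.05), with Etfdh, which feeds electrons from fatty acids to ubiquinone, at +0.21 (SE 0.09). Of 39 assembly factors outside the name rule 24 were higher (median +0.03), and 2 had an unadjusted p under 0.05, again against 10.4% of all genes. These 2 were Ttc19 of complex III at +0.24 (SE 0.10) and Cox15, a heme A synthesis enzyme for complex IV, at +0.31 (SE 0.13).

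Of 19 regulators of mitochondrial gene expression 12 were higher, with a median of +0.09 and of +0.01 without OV replicate 3. Tfb2m, a factor the mitochondrial polymerase needs to start transcription, lay at −0.74, −0.72, −1.10 and −0.62 in OV and at −0.44, −0.51, −0.35, −0.32 and −0.48 in OV+E2. All OV+E2 arrays were higher, by +0.38 on the mean (SE 0.11; adjusted p = 0.317 in limma), and by +0.28 (SE 0.07) without OV replicate 3. Ppargc1a, the coactivator that drives mitochondrial biogenesis, lay at −1.15, −1.34, −1.06 and −1.41 in OV and at −1.49, −1.40, −1.39, −1.74 and −1.85 in OV+E2. Its difference was −0.33 (SE 0.13; adjusted p = 0.439) in overlapping groups, and −0.27 without OV replicate 3, where its unadjusted p was 0.0639. Gabpb1, a partner of the GABPA factor whose motif was counted in the promoters, differed by +0.48 (SE 0.24), or +0.19 (SE 0.06) without OV replicate 3.

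Markers of cell types were read beside these values. Of 10 neuron markers 8 were higher (median +0.16), 1 of the others being below an unadjusted p of 0.05, and their mean level ran from 3.84 to 4.40 in OV, with the lowest on OV replicate 3, and from 4.31 to 4.36 in OV+E2. All 8 oligodendrocyte markers were lower (7 of 8 after median scaling, quantile normalization or normexp; median −0.27; levels 4.72 to 5.35 in OV, with the highest on OV replicate 3, and 4.44 to 4.91 in OV+E2). Leaving out OV replicate 3 gave 7 of 10 neuron markers higher (median +0.08) and 7 of 8 oligodendrocyte markers lower (median −0.14). Of 8 microglia markers 6 were lower, 4 of them below an unadjusted p of 0.05, against 10.4% of all genes (levels 1.86 to 2.19 against 1.56 to 1.78). That 4 became 2 after median scaling, and with each array left out it ran from 2 to 5, with 2 without OV replicate 2 or 3 or OV+E2 replicate 1 or 5. Of 7 red blood cell markers 6 were lower, 4 below that p (levels 1.47 to 1.73 against 1.21 to 1.51). This 4 became 1 after median scaling and 0 in the authors' values. It became 6 without OV replicate 3 (14.2% of all genes), and 2 without OV replicate 2 or OV+E2 replicate 2, 3, 4 or 5. Of 8 astrocyte markers 6 were lower (4 after median scaling) with 0 below that p, and of 8 endothelial markers 6 were lower with 2 below it (0 after median scaling, and 1 without OV replicate 2 or OV+E2 replicate 1, 4 or 5). The part of cell makeup in the values of the members and of the mitochondrially encoded genes was not tested.

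Other tissues that carry the isoforms of complex IV were also looked for. Of 8 tested striated muscle markers 7 were lower, 2 below an unadjusted p of 0.05 (5 and 0 after median scaling; 1 below that p without OV+E2 replicate 1, 2 or 5, and 3 without OV+E2 replicate 3), with mean levels of −2.45 to −1.95 in OV and −2.69 to −2.54 in OV+E2; Myh4 was not well above background on 8 of 9 arrays. Of the testis markers, Prm1 lay at −3.05, −2.75, −2.68 and −2.69 in OV and at −3.21, −3.34, −3.18, −3.08 and −3.15 in OV+E2, and Tnp1 was not well above background on 8 of 9 arrays. For brown fat, Ucp1 did not exceed background clearly on any of the 9 arrays and Cidea differed by +0.89 (SE 0.46), or +0.48 without OV replicate 3. Of 7 tested pericyte and smooth muscle markers 4 were lower (3 after median scaling), 1 below that p, with levels of −0.90 to −0.61 in OV and −1.01 to −0.65 in OV+E2. Of 5 parvalbumin neuron markers, which include the member Cox6a2, 3 were higher. Of 6 choroid plexus markers all 6 were higher, with 0 below that p in either list. Mean choroid plexus levels were −3.22 to 0.06 in OV and −1.48 to 0.12 in OV+E2. The choroid plexus direction turned with 1 array: without OV replicate 2, 4 of 6 were lower (median −0.23), and without OV replicate 3 all 6 were higher (median +1.06) with 1 below that p. Their part in the values of Cox4i2 and Cox6b2 was not tested.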

How the data were processed

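Agilent 1-colour arrays were read from the scanner files, in which the processed signal is a background-subtracted intensity, as deposited by the authors. Feature Extraction is version 10.7.3.1 in the file headers and 9.1 in the submitters' processing notes. Per the labels, each array held 1 rat; p-values measure the spread between these rats. The authors' own intensity table (30469 probes; its scaling is not stated there) served as an alternative, in log2 as deposited.

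Control and outlier spots were left out (1 member value), and spots of a probe were averaged on the log2 scale. Values are log2 signal minus the array's 75th percentile. Probes marked as above background on 4 or more of the 9 arrays were fitted with limma 3.58.1 in R 4.3.3 (lmFit, eBayes, group as the only term), and p-values were adjusted by Benjamini-Hochberg over 30220 probes. The brightest tested probe stood for its gene. The number of arrays limits the precision. The fit was tested on simulated data. Alternatives covered background correction, scaling, filter, values, slide, replicate block, array weights and each array left out.

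Members, lists and alternatives were chosen with earlier results of these data known. Named were up to 4 genes of smallest p per complex, complex IV and c-subunit isoforms, complex II genes and Cyc1, genes with disagreeing probes, members not above background, and up to 3 genes of smallest p per pathway list. File gene names were kept; RefSeq gave a symbol by accession for 85 of 93, of which 15 differ. Probe positions refer to build rn4 as written in the scanner files; their place in exons, introns or UTRs was not analysed here. Replicate numbers are not stated to pair the rats and were not used as pairs in the main fit (see the closing section). The NRF1 and YY1 motifs are given in shorter forms chosen after longer forms had been counted; fewer promoters, members included, held the longer forms.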

Additional observations from a re-analysis of the deposited data

Results flagged for a closer look

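Each of 47 named genes and probes was checked in both groups for an array far from the rest of its group, 94 checks in all, of which chance flags about 1 in 20. There were 7 such values, 4 of them on OV replicate 3. That array was low for Ndufs4 (−2.95, the other OV arrays −1.30 to −1.05), for Uqcrfs1 (2.26, the others 3.54 to 3.76), for Atp5c1 (2.02, the others 3.91 to 4.15) and for the Ndufaf4 probe at chr5:39943282-39943341 (−1.59, the others −0.80 to −0.71). The other 3 were small: Sdhc was low on OV replicate 5 (3.08, the others 3.19 to 3.20), Ndufs4 was low on OV+E2 replicate 4 (−1.17, the others −1.04 to −1.03), and Cox7a2 was high on OV+E2 replicate 2 (6.33, the others 6.03 to 6.08).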

How the results depend on the processing

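The count of probes at an adjusted p under 0.05 in limma, 0 with the settings used (3137 at an unadjusted p under 0.05), was 69 in the authors' values, 104 in those values scaled to the 75th percentile, 9 without the filter on dim probes, 3506 with array weights, 6 after quantile normalization without OV replicate 3, 1 with slide as a block without OV replicate 3, 1 in the authors' values without OV replicate 3, and 0 to 1 with each array left out in turn. The count of member genes at an unadjusted p under 0.05, 2 with the settings used, was 5 after quantile normalization, 1 after median scaling, 4 with probes above background on all 9 arrays, 6 in the authors' values, 8 in those values scaled to the 75th percentile, 1 with slide as a block and 26 with array weights. Without OV replicate 3 it was 4 in the scaled authors' values, 7 with slide as a block and 8 after quantile normalization, and it ran from 1 to 7 with each array left out, with 7 without OV replicate 1, 5 without OV replicate 5 and 1 without OV+E2 replicate 1, 4 or 5. The median of the members moved by less than the spread between arrays (SD 0.108) under all settings tried. The cause of these moves was not tested. The alternatives that leave out OV replicate 3 together with a second change, and the scaling of the authors' values, were chosen after seeing the data. The Ndufaf4 probe at +0.97 reversed to −0.17 after normexp. The labels do not say whether replicate numbers pair the rats. Deviations of same-numbered arrays correlated at −0.0763 to 0.170 and those of other pairs at −0.290 to 0.122. With only 4 same-numbered pairs these values cannot decide the question. With the replicate block the counts were 0 probes and 2 member genes. Signal over background limits Cox8c, Cox7b2, Ndufa4l2 and the dim Ndufaf4 probe.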
